A study of Mus musculus with 12 samples.

Results

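A set of 10 genes of the endothelium, the cell layer that lines blood vessels, were followed through a bulk RNA sequencing experiment on the neocortex of mice lacking 1 copy of Chd8. They were Cldn5, Cdh5, Pecam1, Esam, Flt1, Kdr, Tek, Slco1c1, Ly6c1 and Vwf, 10 of the 46603 genes in the count tables, and each was found by the symbol of its Ensembl identifier. All are textbook markers of endothelial cells or of the blood-brain barrier. The set was chosen by its genotype values at both stages, known from earlier work on these data, and by how the genes moved together over the libraries. Genotype differences and covariation of the 10 genes are therefore a description and carry no test. The change between the stages is not named by the rule that chose the genes and was tested, but whether it also played a part in the choice is not known, so its p-values are no independent support.

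In all, 4 groups of 3 libraries each were compared, namely Chd8+/+ and Chd8+/- mice at embryonic day 12.5 (E12.5) and at postnatal day 5 (P5), on a C57Bl/6J background. The Chd8+/- mice carried 1 null allele, made by deleting loxP-flanked exon 3 with a ubiquitously active β-actinCre transgene that was later bred out, so that all cells carried it, endothelium included. The line came from injection of 2 targeted embryonic stem cell clones. Both hemispheres were dissected at E12.5 and a single hemisphere at P5, and the libraries of the stages were counted in separate tables, so that age cannot be told apart from dissection and sequencing. Replicates were separate samples of a group, and p-values set the difference between groups against the spread between replicates. In such bulk tissue, fewer endothelial cells and less RNA per endothelial cell cannot be told apart.

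Endothelial cells are held together by adherens and tight junctions, are kept alive and guided by growth factor receptors, and in the brain form a barrier. Vessels grow into the embryonic neocortex from a plexus on its surface, drawn by vascular endothelial growth factor (VEGF) from neural progenitors, and Wnt ligands of the same progenitors switch on barrier genes in the ingrowing cells. Transporters then replace free passage, and their expression rises as the barrier matures around birth. The 10 genes cover these layers. Cdh5 (VE-cadherin) forms adherens junctions, Cldn5 (claudin 5) seals tight junctions, and Pecam1 (CD31) and Esam are immunoglobulin-type adhesion molecules of cell contacts. Kdr (VEGFR2) is the main signaling receptor for VEGF, Flt1 (VEGFR1) binds VEGF and limits it, and Tek (Tie2) is the receptor of the angiopoietins. Slco1c1 (OATP1C1) carries thyroxine across the barrier and is also used by astrocytes, Ly6c1 is a surface protein of brain capillaries, and Vwf (von Willebrand factor) is a clotting protein of endothelium and platelets.

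The genes lie on 8 chromosomes in the GRCm38 build used for the counts. Kdr (chr5:75932827-75978458) and Flt1 (chr5:147561604-147726011) share chromosome 5, both on the minus strand, and Slco1c1 (chr6:141524368-141570177) and Vwf (chr6:125546774-125686679) share chromosome 6, both on the plus strand. The others are Cldn5 (chr16:18776847-18778260), Cdh5 (chr8:104101625-104144502), Pecam1 (chr11:106654217-106750628), Esam (chr9:37528078-37538319), Tek (chr4:94739289-94874976) and Ly6c1 (chr15:75044018-75048830). Merged exon length ran from 1414 bases for Cldn5 to 16064 for Vwf, and no member overlapped another annotated gene on either strand. Counts were of whole genes, exons only.

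Promoter sequence was matched by symbol for 6 of the 10 genes in a RefSeq table on GRCm38.p6. Shown are the 250 bases upstream of the start of Flt1 and Kdr, whose levels followed the set most closely, of Slco1c1, which had one of the largest rises between the stages, and of Cldn5, whose level did not follow the others. Capitals mark matches to AGGAAG or CCGGAA on either strand, cores bound by ETS family factors, a family with several members active in endothelium.

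Flt1 promoter, chr5:147726012-147726261, minus strand: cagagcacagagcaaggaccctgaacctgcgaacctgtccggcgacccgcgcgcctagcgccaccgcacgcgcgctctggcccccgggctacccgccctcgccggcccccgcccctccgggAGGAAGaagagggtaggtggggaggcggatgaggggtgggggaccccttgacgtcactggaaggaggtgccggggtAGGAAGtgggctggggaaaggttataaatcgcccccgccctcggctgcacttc

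Kdr promoter, chr5:75978456-75978705, minus strand: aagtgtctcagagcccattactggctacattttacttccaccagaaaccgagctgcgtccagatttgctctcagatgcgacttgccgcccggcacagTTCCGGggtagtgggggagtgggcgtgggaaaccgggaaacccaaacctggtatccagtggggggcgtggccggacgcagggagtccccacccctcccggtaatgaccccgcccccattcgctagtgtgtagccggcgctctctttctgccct

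Slco1c1 promoter, chr6:141524104-141524353, plus strand: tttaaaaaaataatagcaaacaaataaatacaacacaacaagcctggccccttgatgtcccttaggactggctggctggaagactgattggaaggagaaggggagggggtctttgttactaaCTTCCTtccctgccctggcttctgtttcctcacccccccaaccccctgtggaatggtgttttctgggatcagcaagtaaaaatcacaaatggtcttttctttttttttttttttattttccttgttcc

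Cldn5 promoter, chr16:18776597-18776846, plus strand: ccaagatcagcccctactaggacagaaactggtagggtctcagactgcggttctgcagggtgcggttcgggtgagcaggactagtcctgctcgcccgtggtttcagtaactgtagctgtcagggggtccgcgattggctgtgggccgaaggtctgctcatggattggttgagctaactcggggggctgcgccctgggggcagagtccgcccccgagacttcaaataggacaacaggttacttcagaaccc

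Flt1 had AGGAAG starting 129 and 53 bases upstream of its start, Kdr had the reverse complement of CCGGAA at 153, and Slco1c1 the reverse complement of AGGAAG at 128. Neither motif was found in the Cldn5 or Tek window. Counting Ly6c1, which has 2 annotated starts, 4 of the 6 matched genes held either motif in 250 bases. Among all 32851 promoters of that length, 38.2% did (29.5% held AGGAAG, and 3952 promoters CCGGAA). The core AGATAA of GATA factors, searched on both strands as well, was in none of the 6 genes' windows and in 9.99% of all. A match describes the letters only, and no match overlapped another in the windows shown.

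The libraries held between 38774591 and 54695236 counts. Chd8, the targeted gene, was lower in each Chd8+/- library than in every Chd8+/+ library of its stage, with a log2 fold change of -0.51 at E12.5 and -0.61 at P5. Markers of the dissected tissue were present in all libraries, with Tbr1, a transcription factor of cortical neurons, between 180.1 and 240.2 CPM (counts scaled by library size) at E12.5 and between 115 and 124.5 CPM at P5. Replicate 3 of the P5 Chd8+/- group stood apart from its group in a comparison of counts, with a chi-square per degree of freedom of 40.5 and 46.0 against the other two, where pairs of the other P5 libraries within a group had 6.65 to 10.7. By the root mean square log2 distance over genes it did not stand apart, with 0.2736 to the other two, beside 0.3158 for replicate 1 and 0.2895 for replicate 2. Differences without it are given for the genes whose value it moved most.

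Levels are CPM on TMM library sizes over all 12 libraries, and values run in the order of replicates 1, 2 and 3. Per kilobase of exon, the scale on which genes can be compared, Cdh5 was the highest of the 10 at E12.5 in Chd8+/+ mice with 15.2 ± 0.134 CPM per kb (SD, n = 3). Cldn5 (8.80 ± 0.247) and Kdr (8.60 ± 0.109) followed with overlapping libraries, then Pecam1, Esam, Tek, Flt1, Vwf, Slco1c1 and Ly6c1, where only Flt1 and Vwf overlapped as neighbors. At P5 the order was another one. Cldn5 led with 41.8 ± 2.94 CPM per kb, and Slco1c1, next to last at E12.5 with 0.2997 ± 0.0708, came second with 15.6 ± 1.496. Cdh5 (8.49 ± 0.467) and Esam (8.43 ± 0.328) overlapped behind them, Kdr came next with 5.73 ± 0.532, and Pecam1, Tek and Ly6c1 overlapped from neighbor to neighbor between 3.51 and 3.96. Flt1 (2.45 ± 0.187) and Vwf (2.01 ± 0.140) were the lowest and did not overlap. In Chd8+/- mice the order was the same at E12.5, and at P5 Esam and Cdh5, again overlapping, changed places.

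**Figure D1:**
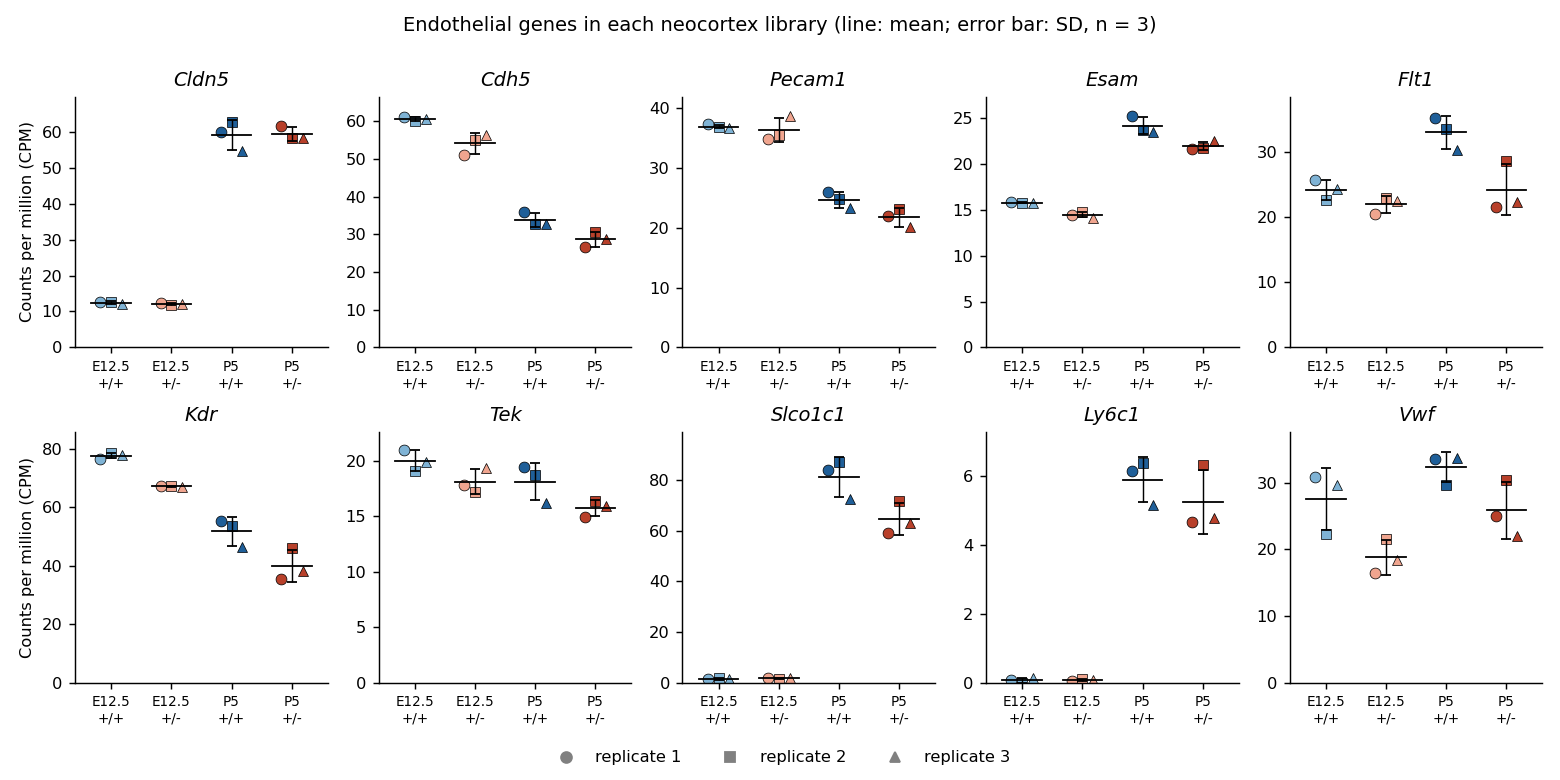
CPM of each of the 10 genes (vertical axes from 0) in the 12 libraries by stage and genotype; symbols mark replicates, lines the mean and bars the SD of 3 libraries. Slco1c1, Ly6c1 and Cldn5 are far higher at P5, Cdh5 and Kdr lower, and the Chd8+/- libraries of Kdr lie under all Chd8+/+ libraries at both stages.

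Of the junction genes, Cdh5 and Esam were lower in all Chd8+/- libraries at both stages, Pecam1 at P5 alone, and Cldn5 at neither. Cdh5 had 61.1, 59.998 and 60.5 CPM in Chd8+/+ and 51.1, 54.9 and 56.4 CPM in Chd8+/- at E12.5, a log2 fold change of -0.16 (SE 0.054). At P5 it had 36.0, 32.8 and 32.8 CPM in Chd8+/+ and 26.7, 30.6 and 28.7 CPM in Chd8+/-, a log2 fold change of -0.22 (SE 0.062). The genotypes did not overlap for this cadherin at either age. Esam, the adhesion molecule, had 15.8, 15.8 and 15.7 CPM in Chd8+/+ against 14.5, 14.7 and 14.2 CPM in Chd8+/- at E12.5. Its P5 levels were 25.3, 23.8 and 23.5 CPM against 21.7, 21.7 and 22.5 CPM. The differences were small, -0.13 (SE 0.061) and -0.12 (SE 0.054) on the log2 scale, and the groups did not overlap at either stage. The SD of the E12.5 Chd8+/+ replicates was 0.3% of their mean, where counting error alone gives about 3.7%, so their closeness is no measure of the replicate error.

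Pecam1 overlapped at E12.5, with 37.3, 36.8 and 36.8 CPM in Chd8+/+ and 34.9, 35.5 and 38.6 CPM in Chd8+/-, the last of these the highest of the 6 libraries (log2 fold change -0.02, and -0.07 to 0.0047 with 1 library left out). Its P5 levels were 25.96, 24.8 and 23.2 CPM in Chd8+/+ and 22.0, 23.1 and 20.05 CPM in Chd8+/-, so the groups parted by a narrow margin (log2 fold change -0.17, SE 0.067). Without replicate 3 of P5 Chd8+/- the difference was -0.104. Cldn5, the tight junction claudin, overlapped at both stages. It had 12.6, 12.7 and 12.04 CPM in Chd8+/+ against 12.4, 11.7 and 12.1 CPM in Chd8+/- at E12.5. The P5 libraries had 59.9, 62.8 and 54.6 CPM against 61.6, 58.3 and 58.3 CPM, and the log2 fold changes were -0.04 (SE 0.069) and 0.02 (SE 0.052). Leaving out single libraries moved them between -0.0682 and -0.0212 and between -0.0238 and 0.0678.

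Of the receptors, Flt1 and Kdr held the largest P5 differences of the set, and Tek a smaller one. Kdr had 76.7, 78.6 and 77.8 CPM in Chd8+/+ and 67.4, 67.1 and 66.9 CPM in Chd8+/- at E12.5, without overlap. The SD of these Chd8+/- replicates was 0.42% of their mean, under the 1.8% that counting error alone gives. At P5 it had 55.4, 53.5 and 46.3 CPM in Chd8+/+ and 35.6, 46.1 and 38.2 CPM in Chd8+/-. The gap at P5 rested on wide groups whose nearest libraries, replicate 3 of Chd8+/+ and replicate 2 of Chd8+/-, all but touched. The log2 fold change was -0.21 (SE 0.043) at E12.5 and -0.36 (SE 0.091) at P5. Flt1, the VEGF decoy receptor, overlapped at E12.5, with 25.7, 22.6 and 24.4 CPM in Chd8+/+ and 20.5, 23.0 and 22.5 CPM in Chd8+/-. The P5 libraries had 35.4, 33.6 and 30.4 CPM in Chd8+/+ and 21.6, 28.8 and 22.4 CPM in Chd8+/-, and no Chd8+/- library reached the lowest Chd8+/+ one. Its log2 fold change went from -0.14 (SE 0.069) to -0.43 (SE 0.0996). The E12.5 value was -0.0906 without replicate 1 of Chd8+/-. Without replicate 3 of P5 Chd8+/- the P5 value was -0.37, and Kdr's was -0.32. Tek, the angiopoietin receptor, overlapped at both stages. It had 21.0, 19.1 and 19.9 CPM in Chd8+/+ against 17.8, 17.2 and 19.3 CPM in Chd8+/- at E12.5 (log2 fold change -0.14, SE 0.068), and 19.4, 18.7 and 16.2 CPM against 14.9, 16.4 and 15.9 CPM at P5 (log2 fold change -0.19, SE 0.075).

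Slco1c1, the thyroxine transporter, was barely on at E12.5, with 1.37, 1.98 and 1.32 CPM in Chd8+/+ and 1.69, 1.48 and 1.93 CPM in Chd8+/-, and the genotypes overlapped (log2 fold change 0.13, SE 0.204). This value ran from 0.0263 without replicate 3 of Chd8+/- to 0.3434 without replicate 2 of Chd8+/+. By P5 it was at 83.9, 87.1 and 72.3 CPM in Chd8+/+ and 59.1, 71.5 and 63.0 CPM in Chd8+/-, without overlap (log2 fold change -0.31, SE 0.076). Astrocytes also use Slco1c1, and the summed level of 14 astrocyte genes at P5 was 3008 to 3126 CPM in Chd8+/+ and 2796 to 3136 CPM in Chd8+/-, with 0 of the 14 apart by genotype without overlap (14.8% of all genes were lower and 8.55% higher). Their part in the genotype values of Slco1c1 was not tested. Ly6c1 had 4, 0 and 6 counts in Chd8+/+ and 2, 5 and 4 in Chd8+/- at E12.5, too few to be tested. At P5 it had 6.15, 6.36 and 5.16 CPM in Chd8+/+ and 4.65, 6.31 and 4.78 CPM in Chd8+/-, with Chd8+/- replicate 2 inside the Chd8+/+ range (log2 fold change -0.15, SE 0.133). The difference was -0.3036 without that library, -0.0736 without Chd8+/- replicate 1 and -0.0782 without Chd8+/- replicate 3, and without Chd8+/+ replicates 2 and 3 it was -0.0951 and -0.2304. Reads of its near-identical neighbor Ly6c2 may be counted with it, and Ly6c2 held at most 18 counts in any library.

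Vwf had the largest E12.5 difference of the 10. It had 30.8, 22.3 and 29.7 CPM in Chd8+/+ and 16.4, 21.6 and 18.4 CPM in Chd8+/-, a log2 fold change of -0.55 (SE 0.130), and the nearest libraries of the groups lay less than 1 CPM apart. At P5 it had 33.6, 29.7 and 33.6 CPM in Chd8+/+ and 25.1, 30.4 and 22.1 CPM in Chd8+/-, where replicate 2 of Chd8+/- overlapped (log2 fold change -0.31, SE 0.102, and -0.20 without replicate 3 of P5 Chd8+/-). Platelets and their precursors also make this protein. Of 10 platelet and megakaryocyte genes, 9 had a log2 fold change below 0 at E12.5, where 49.8% of all genes had, and 4 were lower without overlap, where 5.76% of all genes were, among them Gp9 (1.15 against 0.466 CPM) and Itga2b (7.33 against 4.72 CPM). Their summed level was 25.25 to 31.8 CPM in Chd8+/+ and 17.5 to 25.25 CPM in Chd8+/-, and none was at 0. At P5 it was 29.45 to 31.3 CPM in Chd8+/+ and 30.9 to 35.5 CPM in Chd8+/-. Their part in the E12.5 values of Vwf was not tested.

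Across the set, 9 of 10 genes had a log2 fold change below 0 at P5 and 8 of 9 tested genes at E12.5, with Cldn5 the exception at P5 and Slco1c1 at E12.5. When library trends with gene length were removed, Cldn5 too was below 0 at P5 (-0.01). About 49.6% of all 18666 genes tested at P5 and 49.8% of the 18081 at E12.5 were below 0. The median of the set was -0.21 at P5 and -0.14 at E12.5, beside 0.0017 and 0.00058 over all genes. At P5, 6 genes were lower without overlap, where 14.8% of all genes were, namely Cdh5, Pecam1, Esam, Flt1, Kdr and Slco1c1. At E12.5 it was 4 of the 9 tested, where 5.76% of all genes were, namely Cdh5, Esam, Kdr and Vwf. Cdh5, Esam and Kdr were lower without overlap at both ages, as were 1.07% of the 17146 genes tested at both. These shares describe genes chosen with these values known, and nothing is read from them.

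**Figure D2:**
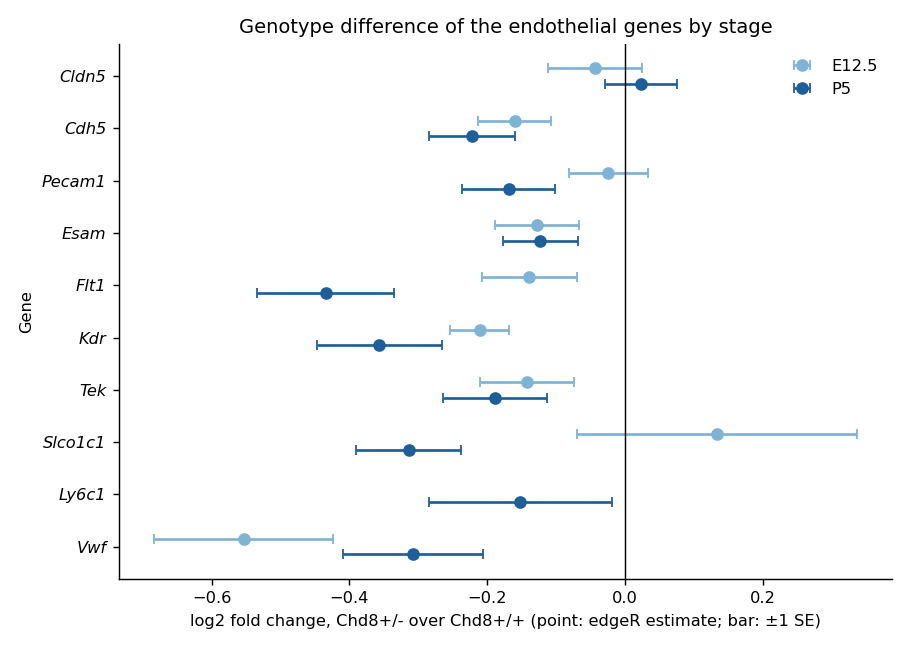
Log2 fold change of Chd8+/- over Chd8+/+ (horizontal axis) for each gene at E12.5 and P5, as edgeR estimates with bars of 1 standard error; Ly6c1 is shown at P5 only. Flt1 and Kdr lie farthest left at P5 with -0.43 and -0.36, Vwf at E12.5 with -0.55, and Cldn5 lies near 0 at both stages.

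The calls that follow describe genes chosen with these genotype values known, and nothing is read from them or from the shares beside them. By edgeR's quasi-likelihood test, adjusted over all genes, 0 of the 10 genes passed at P5 and 0 of 9 at E12.5, where 1 gene in all did at each stage (0.00536% and 0.00553%), Chd8 itself. At an unadjusted p under 0.05 the counts were 8 of 10 at P5, where 17.8% of all genes were, and 3 of 9 at E12.5, where 5.15% were. DESeq2's Wald test called 5 of 10 at P5, all lower (Cdh5, Flt1, Kdr, Slco1c1 and Vwf), where it called 5.28% of the genes past its filter and 3.57% as lower. It called Vwf alone of the 8 past its filter at E12.5, where 0.0374% of genes were called. The P5 count by DESeq2 moved with single libraries. Leaving out replicate 1 of Chd8+/+ brought it to 0, and replicate 2 of that genotype to 1 (Flt1). For Chd8+/- the same replicates left 2 and 5 calls, and leaving out replicate 3 of either group gave 3 calls, with 9 or 10 of the genes past its filter. With edgeR, leaving out that same Chd8+/- replicate 2 brought 4 calls, of Flt1, Kdr, Slco1c1 and Vwf. At E12.5 DESeq2 no longer called Vwf once replicate 1 or 3 of either genotype was dropped.

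The genotype difference itself was set between the stages as an interaction. No gene of the 19676 tested passed with edgeR (0.0%, 1972 at an unadjusted p under 0.05, and 8 with DESeq2, or 0.0938%, none of them among the 7 of the set past its filter). The difference of log2 fold changes, P5 minus E12.5, was -0.47 (SE 0.205) for Slco1c1 and -0.31 (SE 0.139) for Flt1, and 0.23 (SE 0.190) for Vwf. For the junction genes it lay between -0.16 and 0.05.

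The genes also moved together from library to library, more so at P5. Each value was taken as log2 CPM minus the gene's mean over the 6 libraries of its stage, and the median over the genes was read for each library. At P5 the Chd8+/+ libraries had medians of 0.21, 0.13 and 0.02, and the Chd8+/- libraries -0.21, -0.01 and -0.20. All 10 genes were above their mean in Chd8+/+ replicates 1 and 2 and all 10 below it in Chd8+/- replicate 3. Replicate 1 of Chd8+/+ held the highest value for 6 of 10 genes, and replicate 1 of Chd8+/- the lowest for 7. Replicate 2 of Chd8+/- lay next to replicate 3 of Chd8+/+, so the libraries formed a graded series in which the genotypes met. Over all genes tested the library medians stayed between -0.01 and 0.02. At E12.5, for the 9 genes without Ly6c1, the medians were 0.09, 0.05 and 0.06 in Chd8+/+ and -0.09, -0.06 and -0.02 in Chd8+/-, with 9 of 9 genes below their mean in Chd8+/- replicate 2. The span from the highest to the lowest library median was 0.41 at P5 and 0.18 at E12.5.

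**Figure D3:**
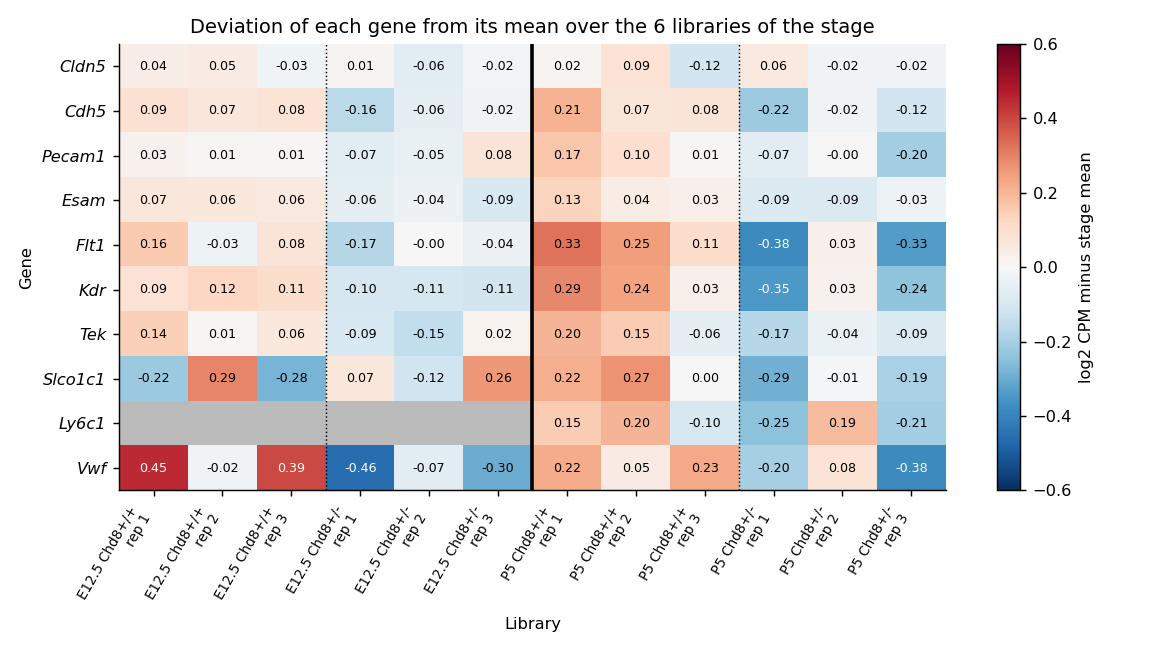
Log2 CPM of each gene (rows) in each library (columns) minus the gene's mean over the 6 libraries of its stage; red is above and blue below the mean, the thick line parts the stages and gray marks Ly6c1 at E12.5, which held too few counts. The columns of P5 Chd8+/+ replicates 1 and 2 are red and those of P5 Chd8+/- replicates 1 and 3 blue in nearly all rows, with medians of 0.21, 0.13, -0.21 and -0.20.

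Pairs of genes correlated accordingly. Over the 6 P5 libraries the median Pearson r of the 45 pairs was 0.82, with 42 pairs above 0, where the same genes set against all others had a median of 0.07. Centered on each genotype's own mean, which takes the genotype difference out, the median was still 0.59, again with 42 of 45 pairs above 0. Over the 6 E12.5 libraries the median of 36 pairs was 0.54, and 0.05 within genotypes, beside 0.00 and 0.01 for pairs with all other genes. Flt1 and Kdr followed the rest most closely at P5, with a median r of 0.89 each, and Cldn5 least (0.07). Slco1c1 followed at P5 (0.86) and not at E12.5 (-0.26), where it was near its floor. All these points share 6 libraries, their depth and their genotype, so the coefficients are a description.

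Against the median profile of the set over all 12 libraries, Kdr (r = 0.97), Flt1 (0.97) and Cdh5 (0.94) were the most alike of the set itself, and Cldn5 the least (0.15). Outside the set, the 10 genes with the highest r among 17146 were Tie1 (0.96), Bdp1 (0.95), Tmem132d (0.94), Rttn (0.94), Tm9sf1 (0.94), Slfn5 (0.94), Rnf213 (0.94), Ets1 (0.93), Cd93 (0.93) and Herc6 (0.92). Tie1, the partner receptor of Tek, Ets1, an ETS factor, and Cd93, a surface receptor, are endothelial, and the other 7 were on none of the lists used here. Within genotypes these 10 had an r between 0.79 and 0.92. Over 25 further pan-endothelial genes the median r was 0.53, with 21 above 0, beside 0.05 over all genes. It was 0.53 for barrier genes, 0.48 for choroid plexus genes, 0.27 for pericyte and smooth muscle genes and for microglial genes, 0.12 for astrocyte genes and -0.19 for meningeal fibroblast genes. These values carry the genotype difference. Within genotypes the values of these lists were 0.38 for pan-endothelial genes, 0.36 for microglial, 0.29 for choroid plexus, 0.20 for barrier and astrocyte genes, 0.099 for pericyte and smooth muscle and -0.04 for meningeal genes, beside 0.02 over all genes. Endothelial transcription factors had 0.39 within genotypes, Wnt genes 0.28, platelet genes 0.19, sprouting genes 0.16, VEGF and angiopoietin genes 0.15 and erythrocyte genes 0.097.

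Between the stages the 10 genes went apart. Of the 9 genes that also passed the count filter at E12.5, 4 rose and 3 fell in Chd8+/+ mice from E12.5 to P5 by edgeR's test (84.0% of all 19039 genes passed, 42.3% lower and 41.7% higher), and in Chd8+/- mice 4 rose and 4 fell (83.2% of 18894, 41.5% lower and 41.7% higher). Ly6c1 entered this fit only through its P5 libraries and is given as levels alone, at most 6 counts in any E12.5 library and 4.65 to 6.36 CPM at P5. On the log2 scale Slco1c1 rose by 5.72 (SE 0.128, adjusted p = 1.13e-12) in Chd8+/+ and by 5.25 (SE 0.116, adjusted p = 4.72e-10) in Chd8+/-, a size reached by 1.67% and 2.18% of genes. Cldn5 rose by 2.25 (SE 0.069, adjusted p = 1.57e-11) and 2.31 (SE 0.058, adjusted p = 9.26e-10), reached by 18.4% and 17.5%. Esam rose by 0.62 in each genotype. The summed level of 14 astrocyte genes was 790 to 839 CPM over the E12.5 libraries and 2796 to 3136 CPM over the P5 libraries. The part of astrocytes in the rise of Slco1c1 was not tested.

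Cdh5 fell by 0.84 (SE 0.057, adjusted p = 3.10e-08) in Chd8+/+ and by 0.90 (SE 0.066, adjusted p = 1.07e-06) in Chd8+/-. Kdr fell by 0.59 (SE 0.063, adjusted p = 2.56e-06) and 0.74 (SE 0.086, adjusted p = 3.33e-05), and Pecam1 by 0.58 (SE 0.059, adjusted p = 1.58e-06) and 0.73 (SE 0.073, adjusted p = 1.08e-05). Changes of that size or more were seen in 50.4% to 65.7% of genes. The remaining 3 genes passed in a single genotype with edgeR on all libraries. Flt1 rose in Chd8+/+ (0.45, SE 0.072, adjusted p = 9.35e-05) and had 0.15 (SE 0.106, adjusted p = 0.211) in Chd8+/-, where the value was 0.0175 without P5 replicate 2, 0.2502 without P5 replicate 1 and 0.1001 without E12.5 replicate 1. Vwf rose in Chd8+/- (0.47, SE 0.128, adjusted p = 0.00706) and had 0.23 (SE 0.106, adjusted p = 0.0647) in Chd8+/+. The Chd8+/+ value was 0.102 without E12.5 replicate 2, and it passed under 7 of 10 alternatives, DESeq2 among them. Tek fell in Chd8+/- (-0.19, SE 0.071, adjusted p = 0.0313) and had -0.14 (SE 0.075, adjusted p = 0.0972) in Chd8+/+, or -0.0611 there without P5 replicate 3. Its call in Chd8+/- was lost with DESeq2 and when replicate 1 or 3 of either stage was left out (-0.2067 to -0.1325). For none of the 3 did the interaction pass, with adjusted p between 0.479 and 0.875. The other 6 of the 9 passed in the same direction in both genotypes, as did 79.1% of the 18651 genes tested in both, and the comparisons share no library.

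**Figure D4:**
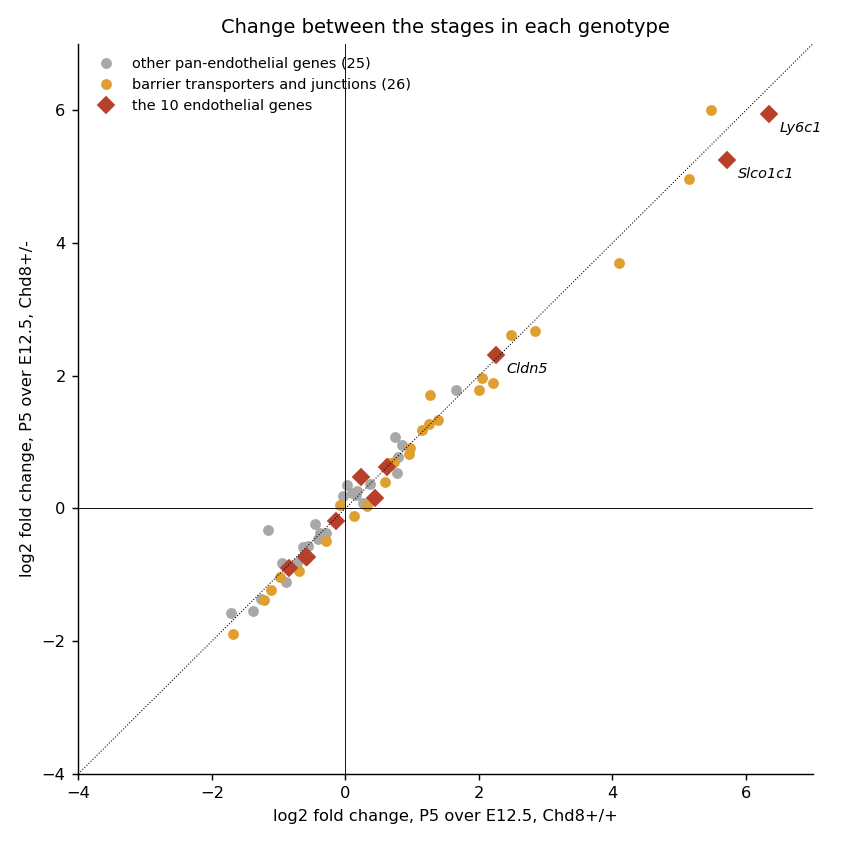
Log2 fold change of P5 over E12.5 in Chd8+/+ (horizontal) and Chd8+/- (vertical) for the 10 genes and for lists of 25 other pan-endothelial genes and 26 barrier transporters and junction genes; the dotted line marks equal change. The points lie along the line, with Slco1c1 and Cldn5 at the upper right beside several barrier transporters, and Ly6c1 there at a position that rests on 0 to 6 counts per library at E12.5.

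Longer lists of vascular genes were read beside them. Of all genes tested, 41.7% rose and 42.3% fell in Chd8+/+, and 41.7% rose and 41.5% fell in Chd8+/-. Of 26 further barrier transporters and junction genes, 19 rose and 6 fell in Chd8+/+ (median log2 fold change 0.96, beside -0.02 over all genes) and 17 rose and 6 fell in Chd8+/-. Only 25 of the 26 passed the count filter at both stages, and 4 had a mean under 1 CPM at E12.5. For a gene that passes at 1 stage alone, the direction is set by that filter. Among them Slc22a8, an organic anion transporter, went from 0.605 to 26.9 CPM in Chd8+/+, Slc38a3, an amino acid transporter, from 16.4 to 91.2 CPM, and Abcb1a, the drug efflux pump, from 2.87 to 13.3 CPM. Slc2a1, the glucose transporter that neural progenitors also use, fell from 134 to 41.7 CPM. Of 25 other pan-endothelial genes, 9 rose and 13 fell in Chd8+/+ (median -0.29), not far from the shares over all genes. Mcam fell from 45.0 to 17.2 CPM, Emcn from 12.8 to 3.92 CPM and Cd34, a surface sialomucin, from 54.2 to 27.95 CPM, whereas Ptprb, the phosphatase that restrains Tek, rose from 16.1 to 27.9 CPM.

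Lists of vessel growth are read against 42.3% of all genes falling and 41.7% rising. Of 20 sprouting, arterial and venous genes 13 fell and 5 rose in Chd8+/+ (median -0.68), with the Notch ligand Jag1 from 43.1 to 10.6 CPM and Plvap, which marks leaky vessels, from 17.7 to 7.21 CPM, while Pdgfb, which recruits pericytes, went up from 10.1 to 31.2 CPM. Of 16 Wnt pathway genes 12 fell and 2 rose, among them the transcription factor Lef1 (31.3 to 5.58 CPM) and the target Axin2 (74.6 to 29.8 CPM), both of which neural cells express too. Of 15 tested ligands and partners of the VEGF and angiopoietin receptors 8 fell and 6 rose. Of 20 endothelial transcription factors 12 fell and 5 rose, with Nr2f2, the venous factor, from 166 to 43.0 CPM and Epas1 (HIF-2 alpha) from 30.3 to 69.2 CPM. Of 16 pericyte and smooth muscle genes 9 rose and 3 fell, with Rgs5 from 31.3 to 150 CPM. The count filter was passed at both stages by 15 of these 16 and by 19 of the 20 sprouting, arterial and venous genes. Of the pericyte and smooth muscle genes 4 had a mean under 1 CPM at E12.5. In Chd8+/- the counts differed from these by 3 genes or fewer in each list.

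By genotype, none of the genes on these longer lists passed edgeR's test at either stage. At E12.5, of 25 other pan-endothelial genes 24 had a log2 fold change below 0 (median -0.16) and 13 were lower without overlap (5.76% of all genes were), among them Ptprb (16.1 against 12.9 CPM), Eng (28.7 against 24.7 CPM) and Mmrn2 (14.2 against 11.7 CPM). The sprouting, arterial and venous list was mixed, with 11 of 20 below 0 (median -0.03) and 5 lower and 2 higher without overlap, where 5.6% of all genes were higher. Acvrl1 had 14.2 against 11.5 CPM and Plvap 17.7 against 14.7 CPM, while Angpt2, a ligand of Tek, was higher in Chd8+/- (2.79 against 3.55 CPM), as was Apln, a peptide ligand of sprouting vessels (10.4 against 11.8 CPM). Of 15 ligands and partners of the VEGF and angiopoietin receptors 12 were below 0 (median -0.07), with 3 lower and 1 higher, Angpt2 again, without overlap. Barrier transporters and junction genes had a median of -0.0026 at this age with 4 of 25 lower without overlap, Wnt genes had 1 of 16, and transcription factors a median of -0.04 with 5 of 20.

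At P5, of 26 barrier transporters and junction genes 22 had a log2 fold change below 0 (median -0.15) and 13 were lower without overlap, where 14.8% of all genes were. Tjp1, a tight junction scaffold, had 113 CPM in Chd8+/+ and 94.5 in Chd8+/-, Slc2a1 had 41.7 and 32.1, and Ocln, or occludin, 9.33 and 7.47. The transcription factors had 17 of 20 below 0 (median -0.13) and 9 without overlap, with Ets1 at 32.7 against 27.1 CPM. Wnt genes had 14 of 16 below 0 and 6 without overlap, with the target Apcdd1 at 97.8 against 85.1 CPM. The pan-endothelial list was mixed, with 15 of 25 below 0 (median -0.09) and 6 lower and 1 higher without overlap, where 8.55% of all genes were higher. Ptprb had 27.9 against 22.0 CPM, and Myct1, the higher one, 1.096 against 1.56 CPM. Of 15 ligands and partners of the VEGF and angiopoietin receptors 11 were below 0 (median -0.10), with 5 lower and 1 higher without overlap. Nrp1, the VEGF coreceptor, had 85.6 against 69.8 CPM, and Angptl2, the higher one, 9.73 against 12.04 CPM. The sprouting, arterial and venous list had 15 of 19 below 0 (median -0.16), with 3 lower and 1 higher without overlap. Notch4 had 10.9 against 7.95 CPM, and Plvap, lower in Chd8+/- at E12.5, was the higher one with 7.21 against 8.56 CPM. DESeq2 called 5.28% of all genes past its filter at P5, and 3.57% as lower. Of the genes past that filter it called 3 of 24 barrier genes (Slc2a1, Slc7a1 and Tjp1) and 2 of 21 pan-endothelial genes (Ptprb and Adgrl4). It called 1 of 16 transcription factors (Ets1) and 1 of 16 Wnt genes (Apcdd1). On the VEGF and angiopoietin list it called 2 of 12 (Nrp1 and again Ptprb), and 2 of 16 sprouting genes (Notch1 and Notch4). All of these were lower, and none of these lists' genes was called at E12.5. Many of these genes, Tjp1, Nrp1, Notch1 and Apcdd1 among them, are also used by neural cells.

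**Figure D5:**
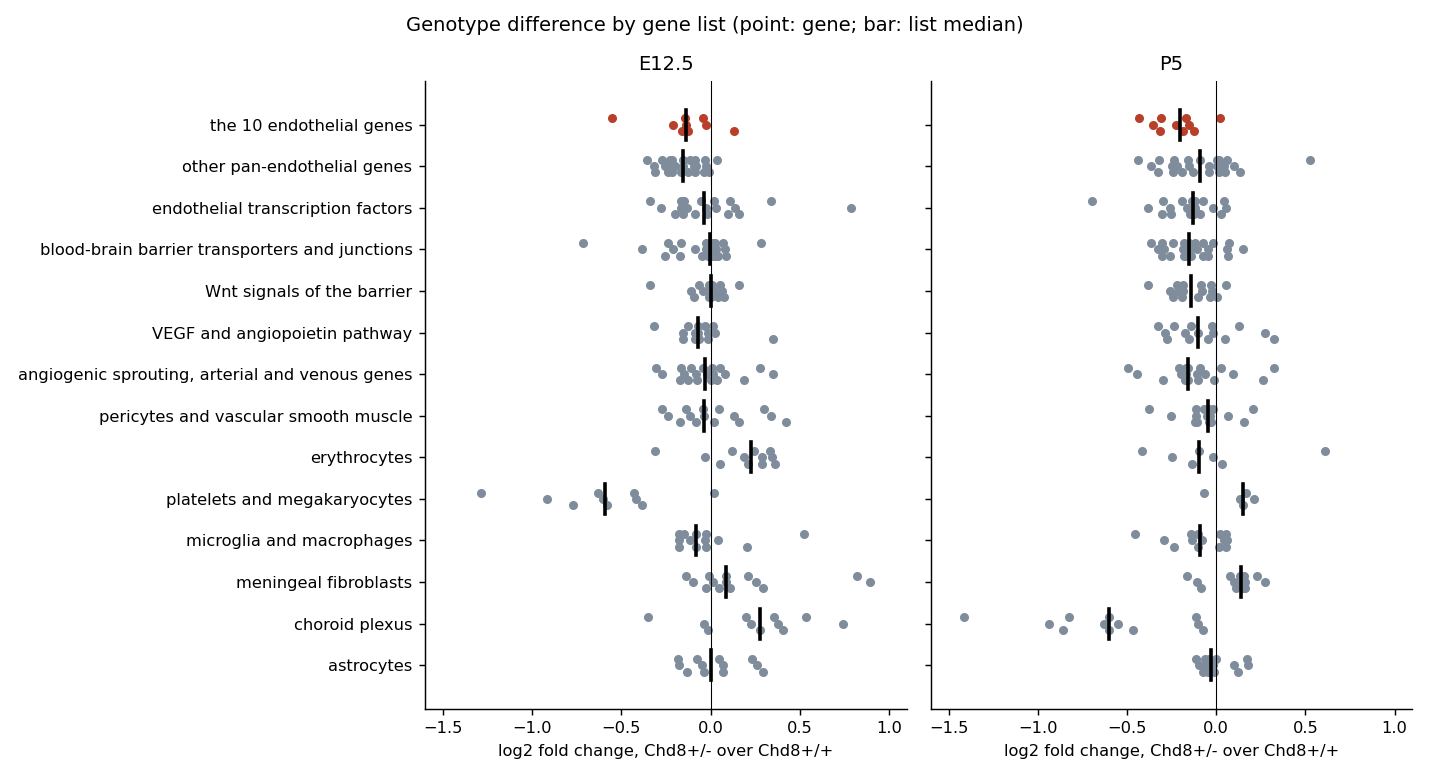
Log2 fold change of Chd8+/- over Chd8+/+ for the tested genes of each list at E12.5 (left) and P5 (right); points are genes and black bars list medians. The pan-endothelial median is -0.16 at E12.5 and -0.09 at P5, that of barrier genes -0.0026 and -0.15, and choroid plexus genes at P5 (-0.60) and platelet genes at E12.5 (-0.59) lie farthest from 0.

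Other cell types were read beside them, where 14.8% of all genes were lower and 8.55% higher without overlap at P5. The choroid plexus list moved most with genotype at P5, where 12 of 12 genes were below 0 (median -0.60) and 9 did not overlap, with a summed level of 555 to 685 CPM in Chd8+/+ and 430 to 482 CPM in Chd8+/-. Ttr, its thyroxine carrier protein, made up most of that sum, with 464 against 332 CPM. None of the 12 was at 0, and the part of this tissue, which has vessels of its own, in the P5 values was not tested. Of 16 pericyte and smooth muscle genes 2 were lower and 1 higher without overlap at P5 (median -0.05), and Abcc9, a channel subunit of pericytes, had 19.96 against 15.2 CPM. Their summed level was 372 to 409 CPM in Chd8+/+ and 365 to 377 CPM in Chd8+/-. Meningeal fibroblast genes, none of them at 0, differed between single libraries at E12.5, with a summed level of 1061 to 1287 CPM in Chd8+/+ and 930.3, 1671 and 1169 CPM in Chd8+/- replicates 1 to 3. Their part in the E12.5 values was not tested. At P5 they had a median of 0.14 with 3 of 14 lower without overlap, microglial genes had a median of -0.09 and astrocyte genes -0.03. Erythrocyte genes summed to 3240 to 3993 CPM in Chd8+/+ and 3284 to 4639 CPM in Chd8+/- at E12.5, and to 109 to 133 CPM over both genotypes at P5, where Hbb-bh1 was at 0 in the Chd8+/- group.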

How the data were processed

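Neocortical mRNA of both genotypes was sequenced at E12.5 and at P5, 3 libraries per group. The authors deposited raw counts per gene for each sequencing run, with no normalization, filter or pooling. Their processing notes name Trim Galore 0.4.1, TopHat2 2.1.0 and featureCounts 1.5.0 on GRCm38.p4, and the P5 file header names Ensembl annotation 82 and a command without strand. The command of the E12.5 counts is not given in the sources used here. The runs of a library were summed. edgeR 4.0.16 (R 4.3.3) was run on TMM-scaled counts past filterByExpr, with its quasi-likelihood test and p-values adjusted over all genes by Benjamini and Hochberg's method, threshold 0.05. The fits were the genotypes within a stage, the stages within a genotype, and the interaction over all 12 libraries. CPM used TMM library sizes over the 12 libraries, and deviations used log2 CPM with a prior count of 2. Fits were tested on simulated data. Alternatives were DESeq2 1.42.0, other size factors, no count filter beyond 1 count in total, all libraries in 1 model, length offsets (loess span 0.5), a replicate block and each library left out. DESeq2 with a library left out was added after seeing the data.

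The 10 genes and the 13 comparison lists, 219 symbols with the genes themselves, were chosen with earlier results of these data known. Named were all 10 genes, from each list in each comparison the 3 genes with the smallest p and any gene called, and the 10 other genes most like the set's median profile. At these depths a CPM of 1 is about 39 to 55 counts, and the replicate SD was at or below counting error in 10 of 39 combinations of gene and group, most of them at E12.5.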

Additional observations from a re-analysis of the deposited data

How the results depend on the processing

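The genotype medians of the set stayed below 0 under all alternatives run, between -0.29 and -0.15 at P5 and between -0.16 and -0.11 at E12.5, whereas counts of calls moved. At P5 edgeR called 1 gene and 0 of the set. DESeq2 called 653 and 5, all genes with at least 1 count 995 and 5, and 1 model of all 12 libraries 4 genes. Leaving out each library gave 1 to 327 genes and 0 to 4 of the set with edgeR, the highest values without Chd8+/- replicate 2, and 48, 122 and 564 genes (without Chd8+/+ replicates 1 to 3) or 140, 891 and 314 (without Chd8+/- replicates 1 to 3), with 0 to 5 of the set, with DESeq2. At E12.5 edgeR called 1 gene and 0 of the set, DESeq2 5 and 1, all genes with at least 1 count 13 and 1, and 1 model of all libraries 2 genes. Leaving out each library gave 0 to 2 genes and 0 of the set with edgeR, and 3 to 18 genes and 0 to 1 of the set with DESeq2. For the interaction DESeq2 called 8 genes, all genes with at least 1 count 17, and leaving out each library 0 to 2. The cause was not tested.

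The 2 genes nearest 0 changed sign. Cldn5 at P5 was -0.0044 without Chd8+/- replicate 1, -0.0238 without Chd8+/+ replicate 3, -0.0128 with length offsets, -0.0118 with these and the block, and -0.0056 and -0.0258 with DESeq2 without the same replicates, in a leave-one-out range of -0.0238 to 0.0678. Pecam1 at E12.5 was 0.0047 without Chd8+/- replicate 1 (0.0048 with DESeq2), in a range from -0.0723. With a library left out, the stage median of the set, Ly6c1 included, was 0.26 to 0.38 in Chd8+/+ and 0.18 to 0.39 in Chd8+/-, and the span of library medians 0.15 to 0.19 at E12.5 and 0.33 to 0.42 at P5. Vwf between the stages in Chd8+/+ passed under 7 of 10 alternatives, DESeq2 and other size factors among them, and Tek in Chd8+/- lost its call under 5 of 10.

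The labels do not say whether replicate numbers pair the samples, which were treated as unpaired. Deviations of same-numbered libraries correlated at -0.23, -0.10 and -0.09 at E12.5 and at 0.23, 0.11 and 0.04 at P5. Libraries of different numbers had -0.0992 to 0.207 at E12.5 and -0.19 to 0.102 at P5. These values do not settle whether the numbers mark pairs. With the replicate block 5 genes were called at P5 and 0 at E12.5, and with length offsets added 32 and 0, none of them in the set. Between the stages the block called 16380 genes in Chd8+/+ and 15966 in Chd8+/-, 9 of the set in each with Ly6c1, and 0 for the interaction.

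Groups of 3 libraries limit the genotype comparisons, and depth limits Ly6c1 and Slco1c1 at E12.5.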
